A study of Homo sapiens with 4 samples.

Results

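Raji is a long-established human line of Epstein-Barr virus-positive B cells, derived from a Burkitt lymphoma. The receptors described here are the G protein-coupled receptors that steer B cells through blood and lymphoid tissue: CXCR4, CXCR5, CCR6, CCR7, CCR10, GPR183 (also named EBI2), S1PR1, S1PR2 and P2RY8. They were listed by name. CXCR4 was chosen by its lower read counts in R1810A than in WT, so its difference between the groups is described without a test. Of the 9 names, 8 matched an Ensembl identifier among the 51714 of the count tables, and S1PR2 matched none and was not analysed here.

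R1810A cells were compared with WT cells. RPB1 is the largest subunit of RNA polymerase II, and R1810A cells carried a vector for an HA-tagged form of it that resists α-amanitin and has alanine in place of a methylated arginine in its C-terminal domain. WT cells carried a vector for the same resistant, tagged protein without the substitution. All cells were electroporated, selected with G418, and kept for 10 days in α-amanitin, which blocks the endogenous polymerase, and both kinds were polyclonal batches. The labels give no separate cultures for the libraries of a group, so p-values reflect the spread between libraries alone, and that spread may be technical. After removal of ribosomal RNA, the total RNA of the cells was sequenced in 4 libraries, 2 of each kind.

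Chemokine receptors couple to inhibitory G proteins and draw cells up a gradient of their ligand. In germinal centres CXCR4 and its ligand CXCL12 hold B cells in the dark zone, CXCR5 and CXCL13 draw them to follicles and the light zone, and CCR7 draws them to the T zone. GPR183 reads oxysterols at the follicle edge, S1PR1 guides exit from lymphoid tissue, and S1PR2 and P2RY8 confine cells to the germinal centre through a G12 or G13 protein and RHOA.

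Summed gene counts were 2116444 and 2081636 in the R1810A libraries, against 2326036 and 2991959 in the WT libraries. Replicates were not copies of one library: the chi-square over genes was 2.13 times its degrees of freedom between the R1810A libraries and 4.03 times between the WT libraries. WT replicate 2, the deepest library, stood apart from the other 3 for several receptors below, and values without it are given there. All 8 B cell markers had reads, with a summed level of 9724 and 10569 CPM in R1810A and 10810.5 and 8202 CPM in WT (CPM, the count per 1e6 gene counts, with TMM scaling). T cell markers summed to at most 1.74 CPM in any library, with CD3D and CD2 at 0, and EPCAM, KRT8, KRT18 and KRT19 of the epithelial list had no read. Plasma cell markers summed to 593 and 574 CPM in R1810A against 656 and 652 CPM in WT, with SDC1 at 0. XBP1 (269 and 258 CPM in R1810A, 320 and 340 CPM in WT) and MZB1 held most of that sum. PRDM1 went the other way (4.28 and 5.25 CPM in R1810A, 1.30 and 2.64 CPM in WT), and IRF4 and TNFRSF17 overlapped between the groups. The part of the plasma cell markers in the receptor values was not tested. The myeloid list summed to 273 and 180 CPM in R1810A and 222 and 147 CPM in WT, mostly CSF1R and ITGAM, with CD14 at 0.477 CPM or less. WT replicate 2 was lowest for this list too, and its part in the receptor values was not tested.

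CXCR4 (ENSG00000121966, chromosome 2, 136114349 to 136118165 on the minus strand of GRCh38 in GENCODE 29) was the most abundant of the receptors per length in every library. Its promoter is shown because CXCR4 is the receptor the list was built around, and that of CXCR5 because it is the next receptor by reads and has an entry in the same table. Both come from RefSeq on GRCh38.p14 and run from 250 bases before to 50 after the annotated start, 5′ to 3′ on the gene's strand. The CXCR4 window is chr2:136118100-136118399 on the minus strand and the CXCR5 window chr11:118893142-118893441 on the plus strand. In GENCODE 29 the CXCR5 gene begins at 118883766 on the plus strand, upstream of this window. The CXCR5 window therefore covers the RefSeq start alone, and which start these cells use was not tested. Capitals mark matches on either strand to the NRF1 motif, which is the run beginning at position -59 of CXCR4, the TATA motif TATAAA and the GC box GGGCGG, which reads CCGCCC on the other strand.
CXCR4: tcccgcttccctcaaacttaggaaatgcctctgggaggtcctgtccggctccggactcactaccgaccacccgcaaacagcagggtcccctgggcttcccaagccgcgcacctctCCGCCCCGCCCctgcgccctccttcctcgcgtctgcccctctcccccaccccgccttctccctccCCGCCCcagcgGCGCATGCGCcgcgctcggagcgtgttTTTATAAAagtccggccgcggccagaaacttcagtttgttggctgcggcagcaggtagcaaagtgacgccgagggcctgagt
CXCR5: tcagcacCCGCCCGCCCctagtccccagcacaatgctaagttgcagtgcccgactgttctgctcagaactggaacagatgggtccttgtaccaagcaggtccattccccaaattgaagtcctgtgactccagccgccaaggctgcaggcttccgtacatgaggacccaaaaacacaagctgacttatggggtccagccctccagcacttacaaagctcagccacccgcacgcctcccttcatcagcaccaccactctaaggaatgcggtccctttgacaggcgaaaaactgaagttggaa

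The CXCR4 window held the NRF1 motif once, with its first base at position -59 from the start, and TATAAA at position -30, overlapped by the same letters of the opposite strand at -32. Its GC boxes began at -135, -130 and -70, and the first pair overlap each other. The CXCR5 window held overlapping GC boxes at -243 and -239 and neither of the other motifs. Among all 35116 promoter windows of that length in the table, 1.24% held the NRF1 motif, 11.5% TATAAA and 45.0% the GC box. The E-box CACGTG (7.26% of windows) and the octamer ATGCAAAT (1.77%) were in neither of the printed windows. NRF1, the factor for which the motif is named, had 30.5 and 29.6 CPM in R1810A and 24.8 and 28.4 CPM in WT (log2 fold change 0.17, SE 0.20, adjusted p = 0.859). NRF1 is named here for that motif, outside the naming rule. These matches are letters in a window and were not tied to the RNA values.

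CXCR4 had 613 and 585 reads in R1810A, against 983 and 1476 reads in WT. On the CPM scale these were 292 and 279 CPM in R1810A and 427 and 488 CPM in WT, so both R1810A libraries lay below both WT libraries. The group means were 285 ± 8.79 CPM in R1810A and 457 ± 42.5 CPM in WT (SD, n = 2 each), and the fitted log2 fold change was -0.68 (SE 0.11), a level 0.623 of that in WT. In bulk RNA, fewer cells with the transcript and less transcript per cell cannot be told apart. Among genes ranked by RPKM (reads per kilobase and per 1e6 total reads, as deposited), CXCR4 stood at place 416 of 16782 genes with reads and 413 of 16834 in R1810A, against 231 of 16414 and 170 of 17824 in WT. Both R1810A libraries lay below both WT libraries for 19.5% of the 10674 genes tested. Of all genes tested, 0.00937% passed the threshold as lower in R1810A. Because that contrast chose CXCR4, nothing is read from either figure. With a library left out the log2 fold change ran from -0.77 to -0.58.

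**Figure D1:**
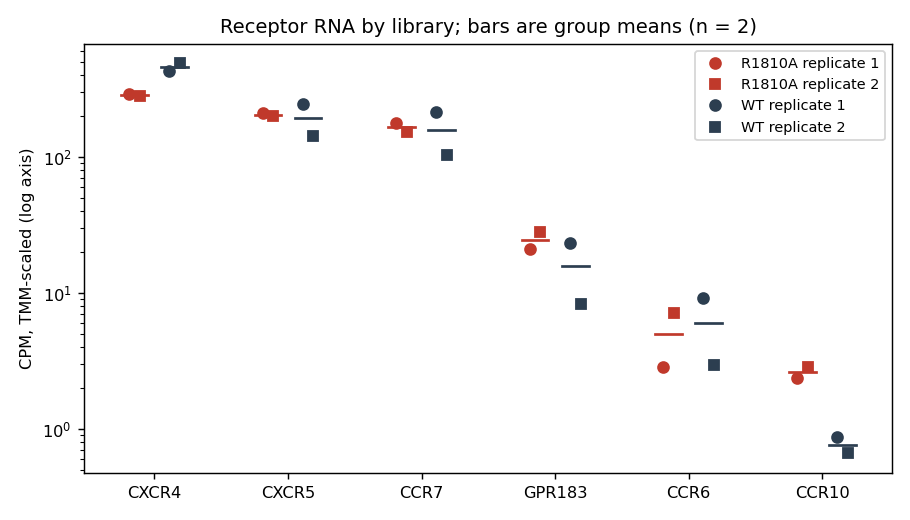
RNA of the 6 receptors with reads in each library, in CPM with TMM scaling on a log axis; points are libraries, circles replicate 1 and squares replicate 2, and bars are group means of 2 libraries. CXCR4 lies lower in both R1810A libraries (292 and 279 CPM) than in both WT libraries (427 and 488 CPM), whereas the WT libraries lie on either side of the R1810A libraries for CXCR5 and CCR7.

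CXCR5, the receptor for CXCL13, and CCR7, the receptor for CCL19 and CCL21, did not differ beyond the spread of the WT libraries. CXCR5 (ENSG00000160683, chromosome 11) had 442 and 418 reads in R1810A and 561 and 429 reads in WT. Scaled, these were 210.3 and 199.5 CPM in R1810A, between the 244 and 142 CPM of the WT libraries. The means of 205 ± 7.62 CPM in R1810A and 193 ± 72.3 CPM in WT gave a log2 fold change of 0.10 (SE 0.20, 95% interval -0.34 to 0.54, adjusted p = 0.928). CXCR5 exons overlap those of BCL9L on the opposite strand in GENCODE 29, and BCL9L had 48 and 48 reads in R1810A and 55 and 84 in WT. Whether the counting used strand is not given in the sources used here, so reads of the overlap cannot be assigned.

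CCR7 (ENSG00000126353, chromosome 17) had 374 and 321 reads in R1810A, and 489 and 312 reads in WT. This was 178 and 153 CPM in R1810A, again between the WT values of 213 and 103 CPM. Its log2 fold change was 0.09 (SE 0.25, 95% interval -0.47 to 0.65, adjusted p = 0.951). The 2 WT libraries differed 2.06-fold in CCR7 and 1.72-fold in CXCR5, replicate 1 being higher in both, while the R1810A libraries differed 1.16-fold and 1.05-fold. For CXCR4 the WT libraries differed 1.14-fold with replicate 2 higher.

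GPR183 (ENSG00000169508, chromosome 13), the oxysterol receptor, had far fewer reads than CXCR5. It had 44 and 59 reads in R1810A and 54 and 25 reads in WT, or 20.9 and 28.2 CPM against 23.5 and 8.26 CPM, and the groups overlap. The log2 fold change was 0.68 (SE 0.39, 95% interval -0.17 to 1.54, adjusted p = 0.677). WT replicate 1 was 2.84-fold above WT replicate 2, and without replicate 2 the log2 fold change was 0.06.

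CCR6, the receptor for CCL20, was near the lower end of what this depth measures. CCR6 (ENSG00000112486, chromosome 6) had 6 and 15 reads in R1810A and 21 and 9 reads in WT, with overlapping groups. The log2 fold change was -0.20 (SE 0.60, 95% interval -1.51 to 1.11, adjusted p = 0.954). In GENCODE 29 its exons overlap those of a noncoding transcript on the same strand, so its few reads need not all be its own. CCR10, the receptor for CCL27 and CCL28, had 5 and 6 reads in R1810A and 2 and 2 reads in WT, too few to pass the filter on low counts. R1810A was above WT in every pairing of libraries (2.38 and 2.86 CPM against 0.870 and 0.661 CPM). This was also so for 19.8% of the genes tested, a set that passed the filter and so leaves out CCR10. The exact Poisson intervals, which cover counting error only, were 1.62 to 11.7 and 2.20 to 13.1 reads in R1810A and 0.242 to 7.22 reads in each WT library, so they overlap. With no filter the edgeR test gave CCR10 a log2 difference of 1.72 (SE 0.80, adjusted p = 0.831), and its exons overlap those of CNTNAP1 on the opposite strand, which had 1 and 3 reads in R1810A and 1 and 2 in WT.

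Over the 4 tested receptors other than CXCR4, 0 passed an adjusted p under 0.05 with edgeR, and 0 passed with DESeq2. With edgeR 0.356% of the 10674 genes tested passed in either direction and 0.347% as higher in R1810A. An unadjusted edgeR p under 0.05 was reached by 0 of the 4 receptors, where 4.94% higher and 3.06% lower of all genes tested reached it. At these shares a count of 0 in 4 genes is no result about the receptors. That 0 receptors passed the adjusted threshold depended on WT replicate 1. Without that library CCR7 (log2 fold change 0.68, adjusted p = 0.0356), CXCR5 (0.53, adjusted p = 0.0437) and GPR183 (1.56, adjusted p = 0.0437) passed as higher in R1810A, where 1.03% of all genes passed as higher and 1.39% in either direction. Without WT replicate 2 the log2 fold changes were -0.36 for CCR7, -0.25 for CXCR5 and 0.06 for GPR183, and 0 of these passed, where 0.0182% of all genes did, each of them higher. Leaving out a WT library leaves 1 in that group, which is then assumed to vary like the R1810A pair. Low values in WT replicate 2 were also seen for the transcription factor IRF4, with 82 and 60 reads in R1810A against 92 and 39 reads in WT, and for the adhesion molecule ICAM1, at 423 and 442 CPM in R1810A against 437 and 255 CPM in WT. With the deposited total reads as library sizes, the median log2 fold change of all genes tested was -0.13, and CCR7 and CXCR5 were then at -0.035 and -0.023.

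**Figure D2:**
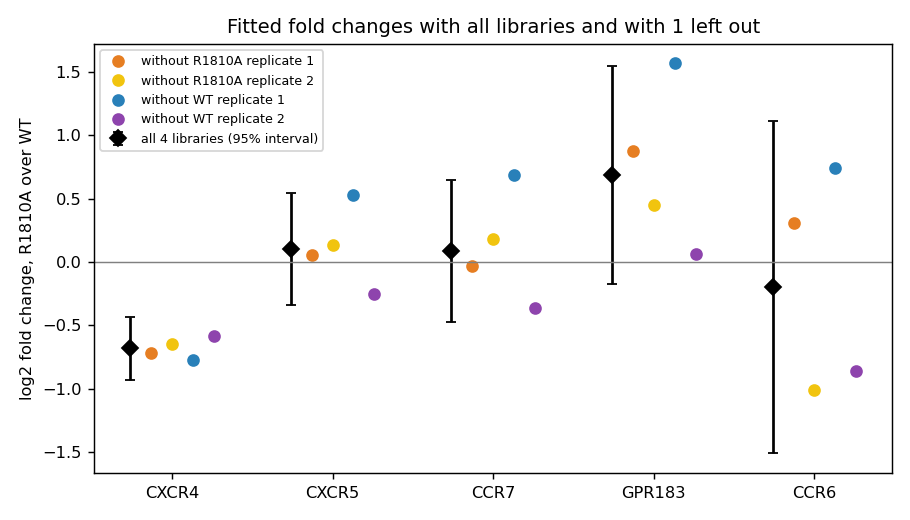
Fitted log2 fold change of R1810A over WT for the 5 receptors tested, with all 4 libraries (black diamonds, bars are the 95% interval of the fit) and with each library left out in turn (coloured circles). CXCR4 was chosen by this contrast, so its interval is no test, and its kept sign follows from that choice. Its value lies between -0.77 and -0.58 in the fits with a library left out. CXCR5, CCR7 and CCR6 change sign with the WT library left out. CCR7 (-0.035) and CCR6 (0.30) also change sign without R1810A replicate 1.

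Per length, the order in WT was CXCR4, CCR7, CXCR5, GPR183, CCR6 and CCR10. CXCR4 had 68.6 and 63.7 RPKM in R1810A and 108 and 123 RPKM in WT. CCR7 had 42.8 and 35.8 RPKM in R1810A and 54.9 and 26.6 RPKM in WT, and CXCR5 had 38.9 and 35.8 RPKM in R1810A and 48.4 and 28.1 RPKM in WT. CCR7 and CXCR5 are therefore not separated in either group, and CXCR4 lay above both in every library. GPR183 followed with 6.44 and 8.41 RPKM in R1810A and 7.75 and 2.72 RPKM in WT. CCR6, at 0.353 and 0.860 RPKM in R1810A and 1.21 and 0.394 RPKM in WT, and CCR10, at 0.702 and 0.820 RPKM in R1810A and 0.275 and 0.209 RPKM in WT, overlap in R1810A.

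The balance among the receptors differed most between WT replicate 2 and the rest. The RPKM of CXCR4 was 1.76 and 1.78 times that of CXCR5 in R1810A, against 2.23 and 4.37 times in WT. CXCR4 took 41.3% (95% Clopper-Pearson interval 38.8 to 43.9%) and 41.7% (39.1 to 44.3%) of the reads of the 8 receptors in R1810A. In WT it took 46.6% (44.4 to 48.7%) and 65.5% (63.5 to 67.5%), the intervals covering counting error only. The R1810A libraries lay below both WT libraries, as the choice of CXCR4 leads to, and WT replicate 1 was nearer to them than to WT replicate 2.

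S1PR1 (ENSG00000170989, chromosome 1), the exit receptor, had 0 reads in all 4 libraries. A count of 0 allows up to 3 reads, which is 0.243 and 0.237 RPKM in the R1810A libraries and 0.238 and 0.181 RPKM in the WT libraries. P2RY8 (ENSG00000182162) is also listed at 0 in every library, but no level is given for it. It lies in the pseudoautosomal region, whose sequence the X and Y chromosomes share. All 18 protein-coding genes that GENCODE 29 places on both chromosomes were listed at 0 in all 4 libraries, among them SLC25A6 and CD99, which most cells use, while 424 of 761 other protein-coding genes of the X chromosome (55.7%) had a read. How reads with several matching places were counted is not given in the sources used here.

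Set beside other receptors that position leukocytes, CXCR4 remained first. Of 44 such receptor genes, the 8 above included, 14 were over 1 RPKM in every library and 11 were listed at 0 in all 4. P2RY8, for which no level is given, is among those 11. S1PR4, a sphingosine receptor of lymphocytes, came second with 61.9 and 58.2 RPKM in R1810A and 78.0 and 62.0 RPKM in WT. In R1810A it lay only just below CXCR4, whereas in WT CXCR4 was well above it. S1PR4 itself was at 185 and 179 CPM in R1810A and 217 and 173 CPM in WT, with overlapping groups and a fitted log2 difference of -0.09 (SE 0.13, adjusted p = 0.884). CCR7 and CXCR5 came next in both groups. After them stood P2RY10 and PTGER4, a prostaglandin E2 receptor, with log2 fold changes of -0.0034 (SE 0.16) and -0.03 (SE 0.18).

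**Figure D3:**
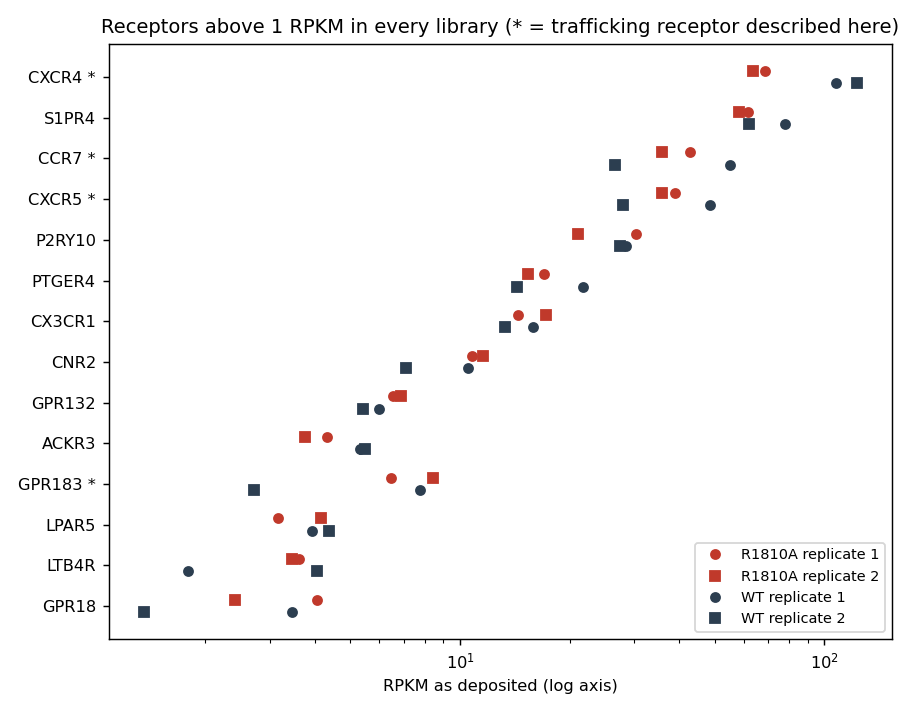
Levels of the 14 receptor genes above 1 RPKM in every library, as deposited RPKM on a log axis; each row is a gene, red points R1810A and dark points WT, and an asterisk marks the receptors described here. CXCR4 leads in every library, and S1PR4, CCR7 and CXCR5 follow.

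Of the 18 other chemokine receptors, 2 were tested and 7 were at 0. CX3CR1, the fractalkine receptor, had 99.9 and 123 CPM in R1810A and 102 and 85.9 CPM in WT (log2 fold change 0.25, adjusted p = 0.681). ACKR3, the second receptor for CXCL12, which scavenges it, had 18.6 and 16.7 CPM in R1810A and 21.3 and 22.1 CPM in WT (log2 fold change -0.30, SE 0.23, adjusted p = 0.772). Of the 8 chemokine ligands only MIF, a cytokine that can also bind CXCR4, was tested, at 122 and 102 CPM in R1810A and 135 and 130 CPM in WT (log2 fold change -0.25, adjusted p = 0.657). CXCL12 had 0 reads in both R1810A libraries and 2 and 0 reads in WT, CCL27 had 1 read in all, and CXCL13, CCL19 and CCL21 had none.

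Among 15 genes of oxysterol and sphingosine metabolism and their receptors, 6 were tested and 0 passed, where 0.356% of all genes did, and the median log2 fold change was -0.10. CH25H and CYP7B1, which make the GPR183 ligand, were at 0 in all 4 libraries. The phosphatases of sphingosine 1-phosphate SGPP1 (0.15, SE 0.16) and SGPP2 (-0.23, SE 0.26) and the transporter ABCC1 (0.16, SE 0.14) had the smallest p. None of the 3 had an unadjusted p under 0.05.

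In the list of G protein coupling and confinement, 16 of 20 genes were tested, 0 passed and 0 had an unadjusted p under 0.05, where 0.356% of all genes tested passed and 4.94% higher and 3.06% lower had such a p. At that background a count of 0 in so few genes is no result about the list. The median log2 fold change was -0.03, against -0.0046 for all 10674 genes. ELMO1, which with DOCK2 activates RAC below chemokine receptors, had 107 and 105 CPM in R1810A and 120.0 and 134 CPM in WT (log2 fold change -0.26, SE 0.12, adjusted p = 0.635). RHOA, the effector of confinement by P2RY8 and S1PR2, and GNB1, a G protein β subunit, were the most abundant, with log2 fold changes of -0.07 (SE 0.10) and -0.09 (SE 0.11). GNAI3, an inhibitory α subunit, was at 0.23 (SE 0.13) and GNG7 at -0.38 (SE 0.24).

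Receptor desensitisation and sorting held the most members with a small p. Of 18 tested genes 0 passed after adjustment over all genes, where 0.356% of all genes tested did. An unadjusted p under 0.05 was reached by 3 genes higher and 3 genes lower in R1810A, where 4.94% and 3.06% of all genes tested did. RGS13, a germinal centre regulator that ends G protein signalling below CXCR4 and CXCR5, had 235 and 256 CPM in R1810A against 193 and 176 CPM in WT (log2 fold change 0.41, SE 0.11, adjusted p = 0.257). RGS19, another such regulator, had 128 and 130.3 CPM in R1810A against 171 and 162 CPM in WT (log2 fold change -0.36, SE 0.11, adjusted p = 0.376). GRK2, a kinase that phosphorylates activated receptors, had 304 and 301 CPM in R1810A against 360 and 379 CPM in WT (log2 fold change -0.29, SE 0.10, adjusted p = 0.491). The groups did not overlap for 6 genes higher and 5 genes lower in R1810A of the 18, where 19.8% and 19.5% of all genes tested were so placed, and the list median was 0.13.

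Of 16 adhesion and homing genes, 14 were found and 11 tested, and 0 passed, where 0.356% of all genes tested did. ITGB2, the β2 chain of LFA-1, had 325 and 313 CPM in R1810A and 221 and 231 CPM in WT, with no overlap (log2 fold change 0.50, SE 0.11, adjusted p = 0.0909). ITGB2 passed without WT replicate 1 (0.47, adjusted p = 0.0477). ICAM1 did so too (0.76, adjusted p = 0.0073), and without WT replicate 2 it was at -0.019. ICAM3 (-0.80, SE 0.41) and ICAM2 (-0.37, SE 0.20), ligands of LFA-1, had the next smallest p, with 8 and 9 reads of ICAM3 in R1810A and 15 and 23 in WT. ICAM1 and CD22, a lectin of B cells, were the most abundant, at 0.33 (SE 0.20) and 0.11 (SE 0.15). The list median was 0.13, and CD99 of this list is one of the pseudoautosomal genes listed at 0.

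The factors known to control these receptors' genes showed 0 of 16 tested members past the threshold (0.356% of all genes) and 0 at an unadjusted p under 0.05 (4.94% higher and 3.06% lower of all genes), counts near the background. Their median log2 fold change was 0.03. POU2AF1, a B cell coactivator, had 216 and 244 CPM in R1810A and 255 and 282 CPM in WT (log2 fold change -0.22, SE 0.11, adjusted p = 0.654). TCF3, a B cell E protein, stood at -0.19 (SE 0.12), NFKB1 at 0.18 (SE 0.14) and MYC at -0.18 (SE 0.15). MYC was at 412 and 387 CPM in R1810A and 376 and 526 CPM in WT, so its WT libraries also lay on either side of the R1810A libraries. KLF2, which controls S1PR1 in lymphocytes, was listed at 0 in every library, as was S1PR1. Other receptors of B cell positioning had a median of 0.36 in 7 tested genes, 4 above and 3 below 0, against -0.0046 for all genes tested. The median gene was LTB4R (SE 0.31), at 31.9 and 31.5 CPM in R1810A and 14.8 and 33.4 CPM in WT. In this short list 0 passed the threshold, where 0.356% of all genes tested did. CNR2, a cannabinoid receptor of B cells, was at 0.47 (SE 0.17, adjusted p = 0.510). Its value fell to 0.20 once WT replicate 2 was dropped and rose to 0.77 once WT replicate 1 was. GPR132 was at 0.36 (SE 0.17). GPR18, with 31 and 19 reads in R1810A and 27 and 14 in WT, was at 0.60 (SE 0.44).

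**Figure D4:**
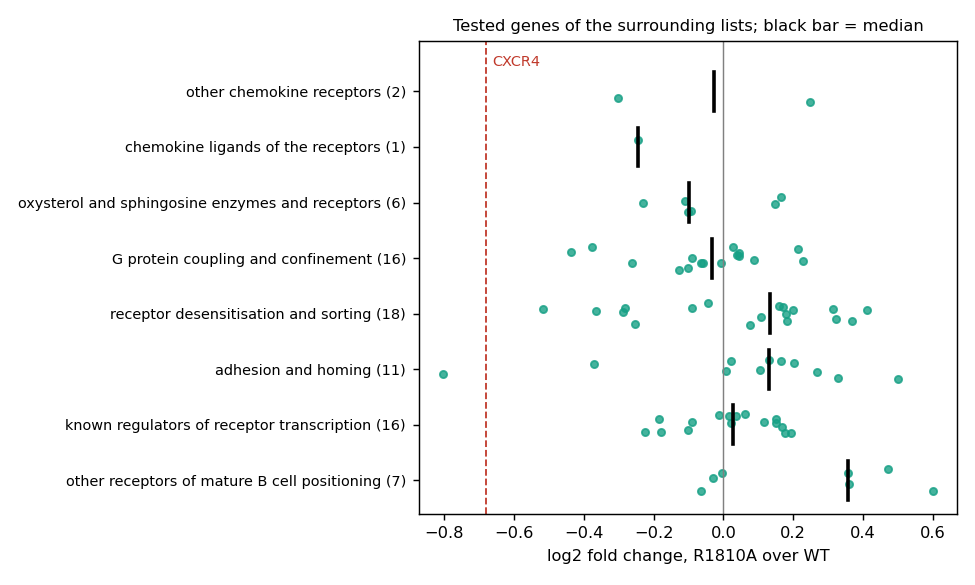
Log2 fold change of R1810A over WT for the tested genes of each surrounding list; each point is a gene, the black bar the list median, the number of tested genes is in brackets and the dashed line marks CXCR4 at -0.68. The medians run from -0.25 (MIF alone) to 0.36, and ICAM3, a gene of few reads at -0.80, is the 1 point beyond CXCR4.

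The genes whose levels over the 4 libraries lay closest to those of CXCR4 were found among 3108 genes with a symbol and a mean count of at least 200, by the root mean square difference of log2 CPM centred on each gene's mean. They were the histone gene H2AC11 (0.0795), the amino acid transporter gene SLC38A5 (0.0886), AGBL5 (0.104), a carboxypeptidase gene, the histone gene H3C4 (0.107) and the thymidine kinase gene TK1 (0.124). H2AC11 had 181 and 195 CPM in R1810A and 269 and 294 CPM in WT, and SLC38A5 had 93.7 and 85.4 CPM in R1810A and 122 and 134 CPM in WT. Their log2 fold changes were -0.58 and -0.51, and those of AGBL5, H3C4 and TK1 were -0.51, -0.49 and -0.48, all smaller in size than that of CXCR4. Since they were picked for a pattern that includes the difference between groups, these values are a description with no test.

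**Figure D5:**
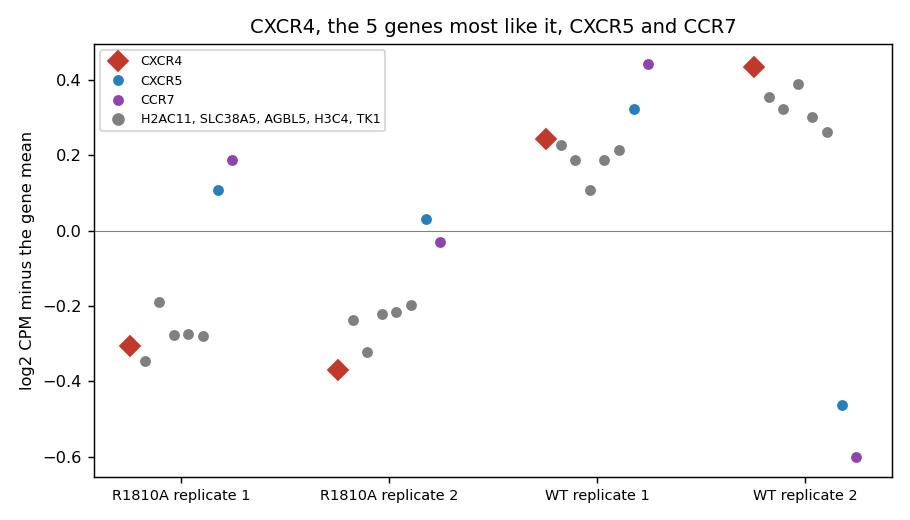
Log2 CPM minus the gene's mean over the 4 libraries, for CXCR4 (red diamonds), the 5 genes most like it (grey), CXCR5 (blue) and CCR7 (purple). CXCR4 and the 5 genes are below their mean in both R1810A libraries and above it in both WT libraries, while CXCR5 and CCR7 are highest in WT replicate 1 and lowest in WT replicate 2.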

How the data were processed

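The deposited files give, per library, read counts per Ensembl gene, RPKM, gene length and total reads. The deposited counts are whole reads per gene, per the file headers, with no normalization. The submitters' processing notes name Bowtie and the build hg19. Its version, the counting program, the annotation, strand use and the handling of reads with several matches were not given in the sources used here. Deposited RPKM values equalled counts scaled by the deposited length and total reads within a relative tolerance of 0.0001, and were used only to compare levels between genes. What the total reads count is not stated.

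Identifiers were matched to current symbols and to GENCODE 29 (GRCh38), whose coordinates are not those of the counting. The comparison of R1810A with WT used edgeR 4.0.16 under R 4.3.3, with TMM factors on summed gene counts, filterByExpr, and the quasi-likelihood test (glmQLFit, glmQLFTest) on a model of group alone. P-values were adjusted by Benjamini-Hochberg over 10674 tested genes, with a threshold of 0.05. The SE is the absolute log2 fold change divided by the square root of F, and the 95% interval uses the t distribution of the fit. The test was first run on simulated counts, with the same spread setting for all genes and changes larger than that of CXCR4. That run does not show how well changes of the size seen here are found. Intervals and floors for counts cover counting error only, and 2 libraries a group limit the precision of every mean. Alternatives were DESeq2 1.42.0, limma-voom (limma 3.58.1), robust edgeR, other scalings and filters, a replicate term, and each library left out.

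The receptors and gene lists were chosen with earlier results of these data known. Genes named in a list are those past the threshold, the 3 with the smallest p and the 2 with the highest mean RPKM, and the 5 genes most like CXCR4 are named too. Genes named for a value beside another result (NRF1, BCL9L, CNTNAP1, IRF4, LTB4R, cell type markers, and genes with at most 2 reads) stand outside that rule, their values having been seen.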

Additional observations from a re-analysis of the deposited data

How the results depend on the processing

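In the main analysis 37 genes were higher and 1 lower in R1810A, 38 in all. With no filter there were 78 higher and 7 lower, 85 in all, with the replicate number as a block 73 and 4, 77 in all, and with limma-voom 24 higher, 25 in all. Lower genes numbered 5 with the deposited total reads, 2 with DESeq2 and 4 with robust edgeR. With a library left out all called genes ranged from 2 to 153, higher genes from 2 to 113 and lower genes from 0 to 40. Called receptors other than CXCR4 (4 tested) and called genes of the surrounding lists (77 tested) numbered 0 under every alternative but 1. The exception was the fit without WT replicate 1, which leaves 1 WT library. The log2 fold change of CXCR4 kept its sign under all 14 alternatives, which the choice of CXCR4 by this contrast leads to. Its range was -0.77 to -0.58 over the fits that leave a library out, and it was -0.80 with the deposited total reads. With the total reads CCR7 stood at -0.035, CXCR5 at -0.023 and CD22 at -0.018, and with limma-voom PTGER4 stood at 0.0084. With a library left out, genes that changed sign ranged as follows: CCR6 from -1.01 to 0.74, CCR7 from -0.36 to 0.68, CXCR5 from -0.25 to 0.53, CD22 from -0.10 to 0.28, P2RY10 from -0.27 to 0.22, PTGER4 from -0.31 to 0.29, S1PR4 from -0.26 to 0.074, SGPP2 from -0.48 to 0.025, GNB1 from -0.19 to 0.014, ICAM1 from -0.019 to 0.76 and MYC from -0.40 to 0.086. None of these were called with all 4 libraries, and the cause was not tested. By CPM in place of RPKM CXCR5 took place 2 and CCR7 place 3 among the receptors. Libraries with the same number did not deviate together (correlation of deviations -0.04 over 10674 genes). The block changed no call among the receptors other than CXCR4. At this depth CCR6 and CCR10, with at most 21 reads in a library, and GPR183 have wide counting errors, and a gene with 0 reads could still have up to 3.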
